A study of Mus musculus with 15 samples.

Results

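Fibronectin and 9 matricellular genes (Sparc, Sparcl1, Tnc, Thbs1, Thbs2, Spp1, Postn, Ccn1 and Ccn2) were followed in cultured mouse lymphatic endothelial cells (LECs) treated with angiotensin II (Ang II). The genes were chosen by name, and each probe set whose platform annotation gives only that symbol was taken. Of the 10 genes, 9 had a probe set, 1 each, among 19505 gene symbols and 22206 probe sets on the array. Spp1, the gene of osteopontin, matched no probe set with 1 symbol and was not analysed here. Saline-treated controls, cells exposed to Ang II for 12 h and cells exposed for 24 h gave 5 samples each, 15 arrays in all, and the labels put the dose at 500 nM. The methods of the study also state a lower dose in the same sentence. The labels describe the cells as a murine lymphatic endothelial line, while the study also calls them primary, and no strain, age or sex is given for them. They were bought from a supplier and kept in medium with serum. No harvest time is given for the saline cells, so Ang II and time in culture cannot be told apart. Nothing says that the numbered replicates were separate cultures, so the tests take their error from array to array, and that error may be technical only.

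Matricellular proteins are secreted into the extracellular matrix, where they bind cell surface receptors, growth factors and structural proteins and change how cells attach, move and divide. Many are low in resting adult tissue and high in development, wound repair and fibrosis. Fibronectin is a structural adhesion glycoprotein that cells assemble into fibrils through integrins, and it carries many of the sites to which the matricellular proteins bind. In lymphatic vessels fibronectin is a ligand of the integrin that shapes the valve leaflets, and in cells of the heart and arterial wall Ang II is known as an inducer of fibronectin and of Ccn2.

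The RefSeq promoter table for GRCm38.p6 matched 6 of the 10 genes (Tnc, Sparc, Thbs2, Spp1, Postn and Ccn1) with 9 start sites. The 250 bases before the start site are shown for Tnc and Sparc, which had lower means at 24 h, and for Ccn1, whose 24 h mean was within 0.05 of control on the log2 scale. Of the Tnc start sites, the one that lies farther downstream is shown. Each sequence is on the minus strand and is written 5′ to 3′ up to the base before the start site. Capitals mark the motifs named below.
Tnc, chr4:64046937-64047186: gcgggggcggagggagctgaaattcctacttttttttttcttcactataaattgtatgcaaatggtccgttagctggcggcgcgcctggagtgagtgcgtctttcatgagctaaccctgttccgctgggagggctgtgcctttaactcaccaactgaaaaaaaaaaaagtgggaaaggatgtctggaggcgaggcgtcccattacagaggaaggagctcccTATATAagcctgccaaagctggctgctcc
Sparc, chr11:55420081-55420330: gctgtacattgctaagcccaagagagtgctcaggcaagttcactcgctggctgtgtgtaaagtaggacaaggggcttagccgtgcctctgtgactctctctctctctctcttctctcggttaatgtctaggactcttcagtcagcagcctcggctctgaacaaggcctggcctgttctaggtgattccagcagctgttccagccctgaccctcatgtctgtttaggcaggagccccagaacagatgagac
Ccn1, chr3:145649986-145650235: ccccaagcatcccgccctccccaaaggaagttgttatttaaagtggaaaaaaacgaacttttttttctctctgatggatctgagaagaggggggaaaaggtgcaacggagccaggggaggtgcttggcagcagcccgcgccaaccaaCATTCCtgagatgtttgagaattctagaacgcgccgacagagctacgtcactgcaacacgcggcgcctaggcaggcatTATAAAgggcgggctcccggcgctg
The letters CATTCC, to which TEAD factors bind, were searched on both strands and stood in 1 of the 9 windows, that of Ccn1, starting 103 bases before the start site, and in 12.6% of all 32851 promoters in the table. The AP-1 letters TGANTCA were in none of the 9 (6.75% of all promoters), and the CArG box of serum response factor was also in none (1.47%). A TATA box, read as TATAAA or TATATA on the sense strand starting 20 to 40 bases before the start site and searched for only after the sequences had been seen, was in 3 of the 9 windows and in 2.74% of all promoters. These were 1 of the 2 windows of Tnc, the one shown (29 bases before the start site), that of Ccn1 (25 bases) and 1 of the 2 windows of Postn. The motifs do not overlap in the windows shown. A match describes letters and not binding.

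The deposited values are log2 expression after Robust Multichip Analysis (RMA). The array medians lay between 4.80 and 4.84. The highest value of all arrays was 19.93, and 4 probe sets had it on every array. Percentages of control below take the deposited log2 scale as it stands. Of the arrays, replicate 3 of the control and replicate 3 of the 24 h group stood apart, with mean correlations of 0.957 and 0.962 with the other arrays across probe sets (0.966 to 0.969 for the rest). The 95th percentile of 485 probe sets of families usually silent outside their own tissues (defensins, hair keratin-associated proteins and the vomeronasal, trace amine and taste receptors) was 6.26. Over all arrays the means of Fn1, Thbs1, Sparc and Ccn1 were above this mark and those of Tnc, Ccn2, Postn, Thbs2 and Sparcl1 were below it. Sparc and Tnc lay near it, above it on 11 and 6 of the 15 arrays. The 24 h mean of Sparc, 6.14, was below it, and the control mean of Tnc, 6.42, was above it. The mark does not separate expressed from silent genes, since a level also depends on the probes. Of 9 lymphatic markers only Ccl21a was above it, and Lyve1, Prox1 and Flt4, with control means of 4.25, 5.25 and 4.45, were below it in every group, as were all 11 endothelial markers, among them Pecam1 and Cdh5. Most defining markers of the labelled cell type thus lay within the range of the silent families. So did most probe sets of the array, since 14.5% of all 22206 had a mean above the mark. By staining, the study reports the proteins of Lyve1 and Flt4 in these cells. By PCR it reports mRNA of Lyve1, Prox1 and Flt4, and neither assay was analysed here. In bulk RNA, fewer cells of a type and less RNA per cell cannot be told apart.

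After 24 h of Ang II, the mean log2 levels of Tnc, Fn1, Thbs1 and Sparc were lower than in control cells by 0.67, 0.57, 0.35 and 0.34, that is, 62.9%, 67.5%, 78.4% and 79.0% of the control level. At 12 h Fn1 stood at 68.7% of control, Tnc at 82.7%, Thbs1 at 94.3% and Sparc at 102%. Ccn1, Thbs2, Ccn2, Sparcl1 and Postn had 24 h means between 97.0% and 131% of control. None of the 9 genes passed at an adjusted p under 0.05 in any comparison, with adjusted p-values from limma of 0.949 to 0.999 at 12 h, 0.551 to 0.972 at 24 h and 0.787 to 0.994 for 24 h against 12 h. Over all probe sets this threshold called 0% at 12 h, 0.018% at 24 h and 0.0225% for 24 h against 12 h.
The 24 h mean was lower than control in 5 of the 9 genes (48.9% of all probe sets), the 12 h mean in 4 (49.7%), and the 24 h mean was lower than the 12 h mean in 7 (48.6%).
Before adjustment, 4 of the 9 had a p under 0.05 at 24 h, all lower, where 3.46% of all probe sets were lower and 3.64% higher by the same rule. At 12 h, 1 of the 9 was lower and 0 were higher (2.4% and 2.51% of all probe sets), and for 24 h against 12 h, 1 was lower and 0 were higher (2.92% and 3.07%). The median log2 difference of the 9 genes was -0.04 at 24 h, against 0.00 over all probe sets. Arrays of the groups did not overlap in 0 of 9 genes at 24 h (0.585% of all probe sets lower and 0.486% higher), in 1 higher and 0 lower at 12 h (0.365% and 0.324%), and in 1 lower and 0 higher for 24 h against 12 h (0.648% and 0.554%). Both times share the control arrays, and 24 h against 12 h shares arrays with each. As earlier results of these data, which named Fn1 and Tnc, were known when the genes were chosen, and the study itself picked out Sparc on these arrays, these counts are not independent evidence.

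**Figure D1:**
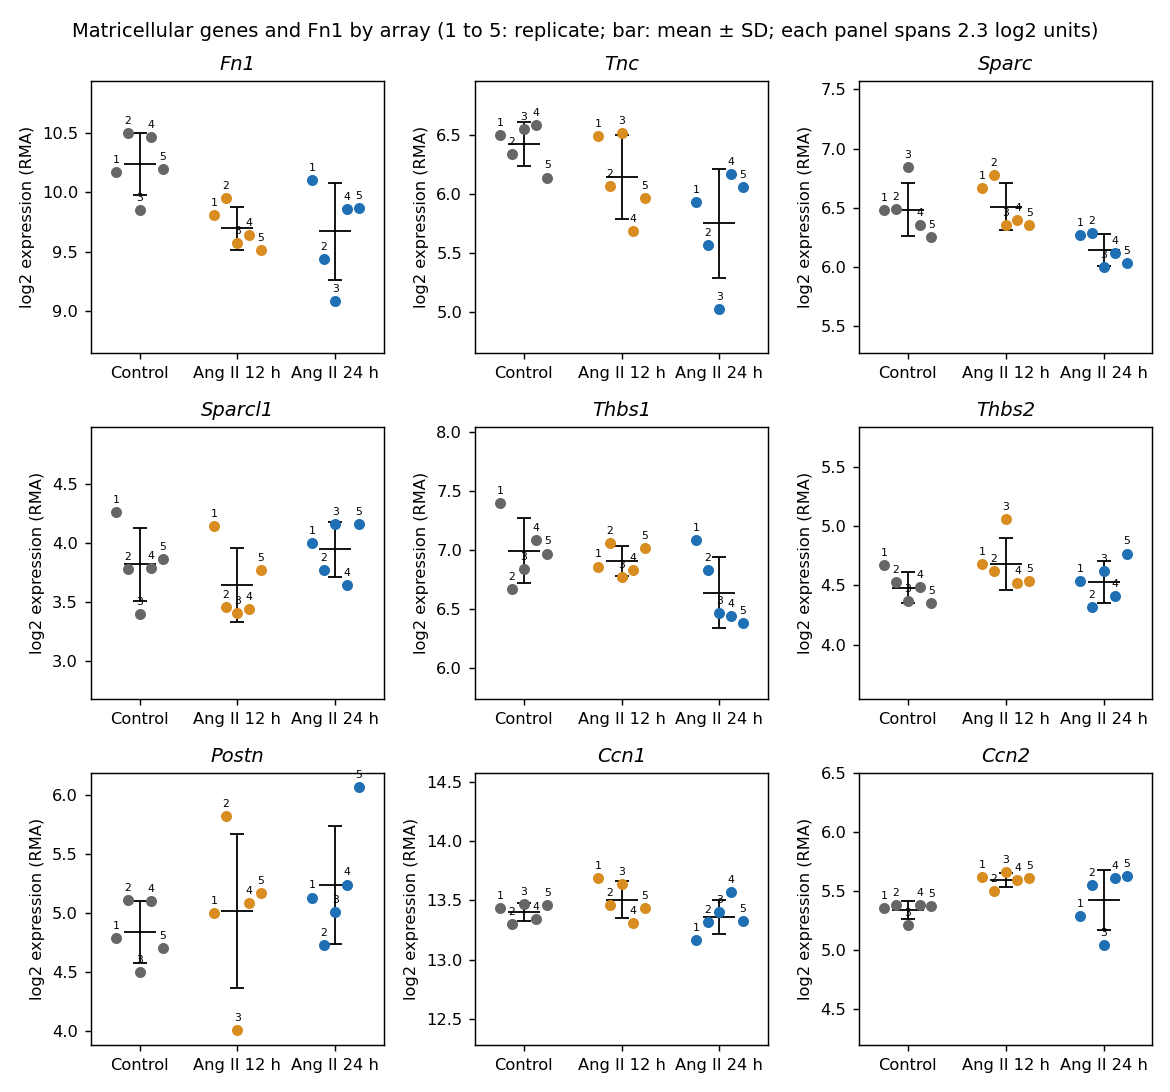
Log2 expression (vertical axis) of Fn1 and 8 matricellular genes on each of the 15 arrays, by group (horizontal axis); points are arrays with their replicate number, and bars are the mean ± SD of 5 arrays. The Ang II 24 h arrays of Tnc reach down to 5.03 and those of Fn1 to 9.08, both in replicate 3, while the 15 arrays of Ccn1 stay between 13.17 and 13.69.

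**Figure D2:**
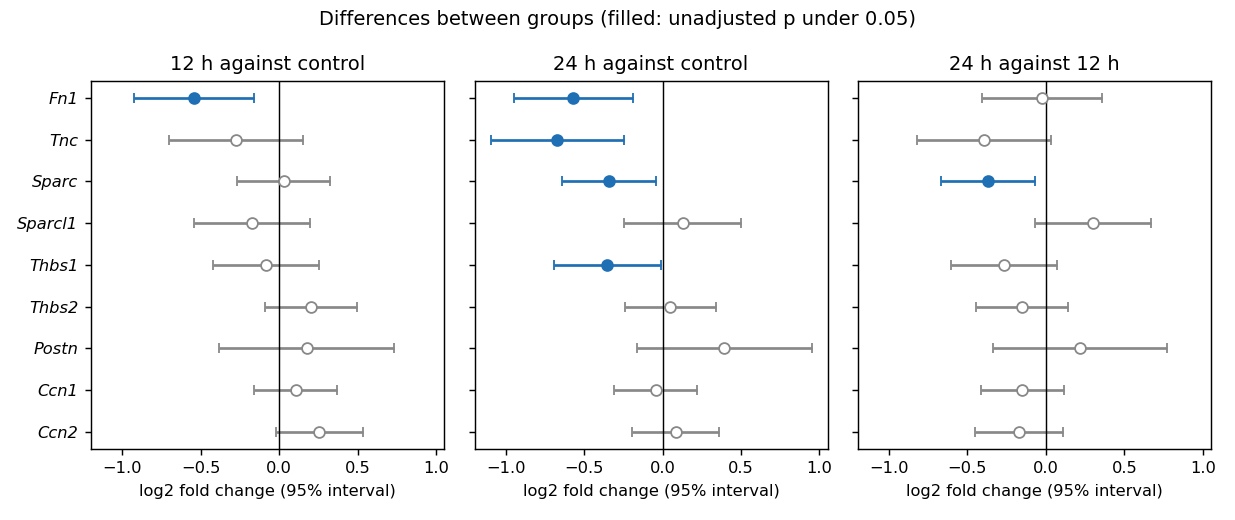
Log2 fold change (horizontal axis) of each gene in 3 comparisons, with the 95% interval from limma as the bar; filled points have an unadjusted p under 0.05. At 24 h the intervals of Fn1, Tnc, Sparc and Thbs1 lie below 0, and at 12 h only that of Fn1 does.

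Fn1 encodes fibronectin (probe set TC0100002544.mm.2). The control arrays, replicates 1 to 5, read 10.17, 10.50, 9.85, 10.47 and 10.20. At 12 h they read 9.81, 9.95, 9.57, 9.64 and 9.51. At 24 h they read 10.10, 9.44, 9.08, 9.86 and 9.87. All 5 arrays at each time lay below the control mean of 10.24 ± 0.26 (SD, n = 5), yet both groups overlapped with control through control replicate 3, the lowest control array, which lay below 12 h replicate 2 and below 24 h replicates 1, 4 and 5. The mean was 9.70 ± 0.18 at 12 h and 9.67 ± 0.41 at 24 h. The log2 fold change was -0.54 at 12 h (standard error 0.18, 95% interval -0.92 to -0.16, adjusted p = 0.949) and -0.57 at 24 h (standard error 0.18, 95% interval -0.95 to -0.19, adjusted p = 0.553). By p it was the 174th of 22206 probe sets at 12 h and the 210th at 24 h. Between 12 h and 24 h the difference was -0.03, with a 95% interval of -0.41 to 0.35. The SD at 24 h was the widest of the 3, and without 24 h replicate 3 the 24 h difference was -0.42 (adjusted p = 0.750).

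Tnc encodes tenascin-C, a large matrix glycoprotein of wounds and developing tissue that interferes with the attachment of cells to fibronectin (TC0400002812.mm.2). In control cells replicates 1 to 5 had log2 levels of 6.50, 6.34, 6.55, 6.58 and 6.14. After 12 h they had 6.49, 6.07, 6.52, 5.69 and 5.97. After 24 h they had 5.93, 5.57, 5.03, 6.17 and 6.06. The 12 h arrays split, with replicates 1 and 3 at the control level and the others below the control mean, and at 24 h all 5 lay below that mean, though replicate 4 was above the lowest control array. The means were 6.42 ± 0.18 (SD, n = 5), 6.15 ± 0.35 and 5.75 ± 0.46. The log2 fold change at 24 h was -0.67 (standard error 0.20, 95% interval -1.10 to -0.24, adjusted p = 0.551), the 150th smallest p of all probe sets. At 12 h it was -0.27 (95% interval -0.70 to 0.15), and 24 h against 12 h gave -0.40 (95% interval -0.82 to 0.03, adjusted p = 0.857). Without 12 h replicate 4 the first was -0.16, and without 24 h replicate 3 the second was -0.22. Without 24 h replicate 3 the 24 h difference was -0.49 (adjusted p = 0.741), and without both arrays that stood apart it was -0.46 (adjusted p = 0.867).

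Sparc encodes a collagen-binding, counter-adhesive glycoprotein also called osteonectin (TC1100002783.mm.2). The control arrays read 6.48, 6.49, 6.84, 6.35 and 6.25 in the order of the replicates. The 12 h arrays read 6.67, 6.78, 6.35, 6.40 and 6.35. The 24 h arrays read 6.27, 6.29, 6.0, 6.12 and 6.03. Every 24 h array lay below every 12 h array, and the 24 h and control arrays overlapped only through control replicate 5. Sparc was the 1 gene without overlap for 24 h against 12 h. The means were 6.48 ± 0.22 (SD, n = 5) in control cells, 6.51 ± 0.20 at 12 h and 6.14 ± 0.13 at 24 h. The log2 difference was 0.03 at 12 h (95% interval -0.27 to 0.33), -0.34 at 24 h (standard error 0.14, 95% interval -0.64 to -0.04, adjusted p = 0.643) and -0.37 for 24 h against 12 h (standard error 0.14, 95% interval -0.67 to -0.07, adjusted p = 0.787). Control replicate 3, an array that stood apart, was the highest of all 15, and without it the 24 h difference was -0.25 with an unadjusted p over 0.05. The unadjusted p was also over 0.05 without 24 h replicate 3 (difference -0.30) or 24 h replicate 5 (-0.31). By PCR, which was not analysed here, the study reports a time-dependent fall of Sparc mRNA after Ang II. It also reports that losartan reversed this fall.
Sparcl1 encodes hevin, the closest relative of Sparc (TC0500002887.mm.2). Its arrays ranged from 3.40 to 4.26 in control cells (median 3.79), from 3.41 to 4.14 at 12 h (median 3.46) and from 3.64 to 4.16 at 24 h (median 4.00), and the 3 groups overlapped widely at a level below the mark of the silent families. Its log2 fold change was -0.17 at 12 h (95% interval -0.54 to 0.20) and 0.13 at 24 h (95% interval -0.24 to 0.50, adjusted p = 0.928). With single arrays left out these ranged from -0.30 to -0.06, both ends from leaving out a replicate 1, and from 0.02 without control replicate 3 to 0.24 without control replicate 1. Whether the 24 h differences of Sparc and Sparcl1 differ from each other was not tested.

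Thbs1 encodes thrombospondin 1, which activates latent TGF-beta and inhibits the growth of vessels through Cd36 and Cd47 (TC0200001729.mm.2). Control replicates 1 to 5 read 7.40, 6.67, 6.84, 7.08 and 6.97. The 12 h arrays read 6.86, 7.06, 6.77, 6.83 and 7.02. The 24 h arrays read 7.08, 6.83, 6.47, 6.44 and 6.38. At 24 h replicates 3, 4 and 5 lay below every control and 12 h array, and replicates 1 and 2 lay within the control range. The means were 6.99 ± 0.27 (SD, n = 5), 6.91 ± 0.13 and 6.64 ± 0.30, and the log2 fold change at 24 h was -0.35 (standard error 0.16, 95% interval -0.69 to -0.01, adjusted p = 0.692). At 12 h it was -0.08 (95% interval -0.42 to 0.26). The unadjusted p at 24 h was over 0.05 without control replicate 1 (difference -0.25), 4 (-0.33) or 5 (-0.36) and without 24 h replicate 3 (-0.31), 4 (-0.30) or 5 (-0.29).
Thbs2 encodes thrombospondin 2, which shares the receptors of thrombospondin 1 but lacks its sequence for activating TGF-beta (TC1700001484.mm.2). Its arrays ranged from 4.35 to 4.67 in control cells (median 4.49), from 4.52 to 5.06 at 12 h (median 4.62) and from 4.32 to 4.77 at 24 h (median 4.54). The groups overlapped, with 12 h replicate 3 the highest array. The log2 fold change was 0.20 at 12 h (95% interval -0.09 to 0.49) and 0.05 at 24 h (95% interval -0.24 to 0.34, adjusted p = 0.971). Without 12 h replicate 3 the 12 h difference was 0.11, and with single arrays left out the 24 h difference ranged from -0.0095 to 0.10.

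Postn encodes periostin, a fasciclin-domain protein of fibroblasts and healing tissue that helps to cross-link collagen (TC0300000408.mm.2). It varied most within groups, with a residual SD of 0.50 against a median of 0.28 over all probe sets. The control arrays ranged from 4.50 to 5.11 (median 4.79), the 12 h arrays from 4.01 to 5.82 (median 5.08) and the 24 h arrays from 4.73 to 6.06 (median 5.13). At 12 h the lowest and the highest array, replicates 3 and 2, lay on either side of the whole control range. The log2 fold change was 0.18 at 12 h (95% interval -0.38 to 0.73) and 0.39 at 24 h (95% interval -0.16 to 0.95, adjusted p = 0.797), so that a level from 89.4% to 193% of control is within the interval. Without 24 h replicate 5, the highest array, the 24 h difference was 0.19.

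Ccn1 and Ccn2, formerly Cyr61 and Ctgf, encode integrin-binding proteins of the CCN family and are immediate targets of the YAP and TAZ coactivators. Ccn1 (TC0300003087.mm.2) varied least within groups, with a residual SD of 0.13. Its control arrays read 13.44, 13.30, 13.47, 13.34 and 13.46 for replicates 1 to 5. At 12 h it read 13.69, 13.46, 13.64, 13.31 and 13.44. At 24 h it read 13.17, 13.32, 13.40, 13.57 and 13.33. All 3 groups overlapped, and the means were 13.40 ± 0.08 (SD, n = 5), 13.51 ± 0.16 and 13.36 ± 0.15. The log2 fold change was 0.11 at 12 h (95% interval -0.16 to 0.37) and -0.04 at 24 h (95% interval -0.31 to 0.22, adjusted p = 0.972), so the interval at 24 h runs from 80.8% to 117% of control. Without 12 h replicate 1 the 12 h difference was 0.06.
Ccn2 (TC1000000215.mm.2) read 5.36, 5.38, 5.21, 5.38 and 5.37 in control cells. At 12 h it read 5.62, 5.50, 5.66, 5.59 and 5.61. At 24 h it read 5.29, 5.55, 5.04, 5.61 and 5.63. All 12 h arrays lay above all control arrays, and the 24 h arrays lay on both sides of them, with replicates 2, 4 and 5 near the 12 h level, replicate 3 below every control array and replicate 1 below all of them except replicate 3. Ccn2 was the 1 gene without overlap at 12 h, in a direction found in 0.365% of all probe sets. The means were 5.34 ± 0.07 (SD, n = 5), 5.60 ± 0.06 and 5.42 ± 0.25. The log2 fold change at 12 h was 0.26 (standard error 0.13, 95% interval -0.02 to 0.53, adjusted p = 0.966), and at 24 h it was 0.08 (95% interval -0.19 to 0.36), or 0.18 without 24 h replicate 3 and 0.03 without 24 h replicate 5. All values of Ccn2 were below the mark of the silent families.

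Within the 24 h group the genes with lower means did not share 1 order of the arrays. Fn1 and Tnc were both lowest in replicate 3 and next lowest in replicate 2, whereas Sparc and Thbs1 had their higher values in replicates 1 and 2 and their lower values in replicates 3, 4 and 5. Replicate 3 was the lowest of its group for 4 of the 9 genes (Fn1, Tnc, Sparc and Ccn2) and the highest for Sparcl1, where it tied with replicate 5. In the control group, replicate 3 was the lowest for 4 genes (Fn1, Sparcl1, Postn and Ccn2) and the highest for Sparc and Ccn1. With both arrays left out, the 24 h differences were -0.52 for Fn1, -0.46 for Tnc, -0.35 for Thbs1 and -0.22 for Sparc, and 2 of the 9 genes had an unadjusted p under 0.05 in place of 4. Over all 22206 probe sets, 1272 had such a p at 24 h in place of 1577. With both arrays left out, 1 gene at 12 h and 1 for 24 h against 12 h had such a p, as with all arrays (1046 and 1298 of all probe sets).

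**Figure D3:**
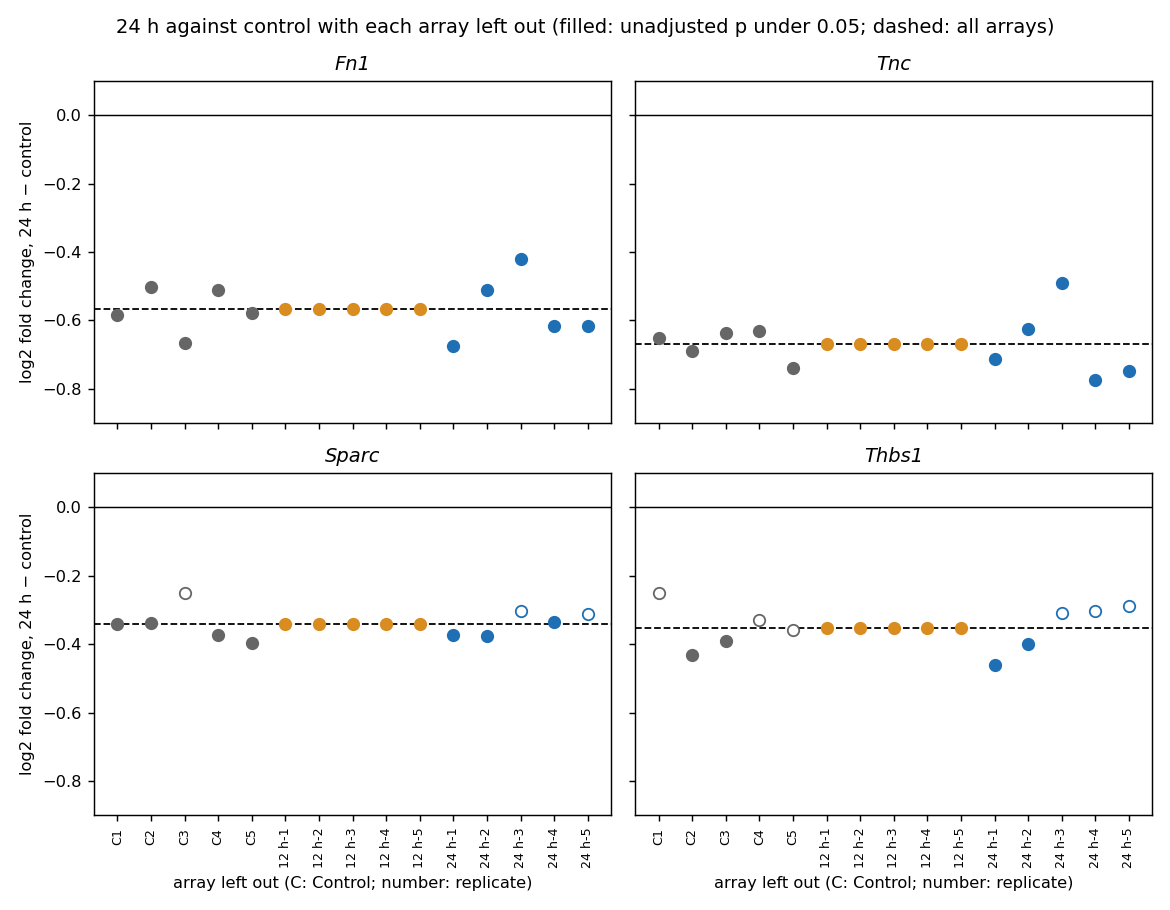
Log2 fold change at 24 h against control (vertical axis) for Fn1, Tnc, Sparc and Thbs1 when each of the 15 arrays is left out (horizontal axis, C for control); filled points have an unadjusted p under 0.05 and the dashed line is the value with all arrays. Fn1 (-0.68 to -0.42) and Tnc (-0.77 to -0.49) stay filled throughout, while Sparc has 3 and Thbs1 has 6 open points.

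Genes that work with these proteins were spread on both sides of 0. Of 22 other matricellular genes of the same families, 1 was lower and 2 were higher at 24 h with an unadjusted p under 0.05, and none passed after adjustment (smallest adjusted p = 0.581, median log2 difference 0.04). The 4 with the smallest p were Thbs3, another thrombospondin, with a log2 fold change of 0.35, Tgfbi, a relative of periostin, with -0.45, Fstl1, a secreted glycoprotein of the SPARC family, with 0.57, and Ccn5 with 0.29. The means of Fstl1 were 6.78 ± 0.49 (SD, n = 5) in control cells, 7.20 ± 0.42 at 12 h and 7.35 ± 0.48 at 24 h. Of 20 cell surface receptors of these proteins, 1 was lower and 0 were higher, and the smallest adjusted p was 0.628. The integrin chain Itga8 had -0.40 and Itga5, the alpha chain of the main fibronectin receptor, had -0.27, while the beta chain Itgb6 had 0.17 and the phosphatase Ptprz1, a receptor for tenascins, had 0.35.
Of 17 genes of matrix assembly and cross-linking, 1 was lower and 0 were higher. This was Bmp1, a protease that matures procollagens, with means of 7.53 ± 0.05 (SD, n = 5), 7.44 ± 0.20 and 7.17 ± 0.21 and a log2 fold change of -0.36 at 24 h (adjusted p = 0.599). The fibronectin-binding fibulin Fbln1 had -0.27, Mmrn2 had -0.22 and the lysyl oxidase Loxl4 had 0.17. Of 20 other targets of YAP and TAZ, 2 were lower and 0 were higher. The kinase Nuak2 had -0.71 (standard error 0.17, adjusted p = 0.307), with means of 6.50 ± 0.41, 6.10 ± 0.14 and 5.79 ± 0.17, and the phosphatase Ptpn14 had -0.30, while Crim1 had -0.26 and Asap1 had 0.30. Their median was 0.03, and Ccn1 and Ccn2, with -0.04 and 0.08 at 24 h, lay near it. The shares to read these counts against are 3.46% lower and 3.64% higher over all probe sets.

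**Figure D4:**
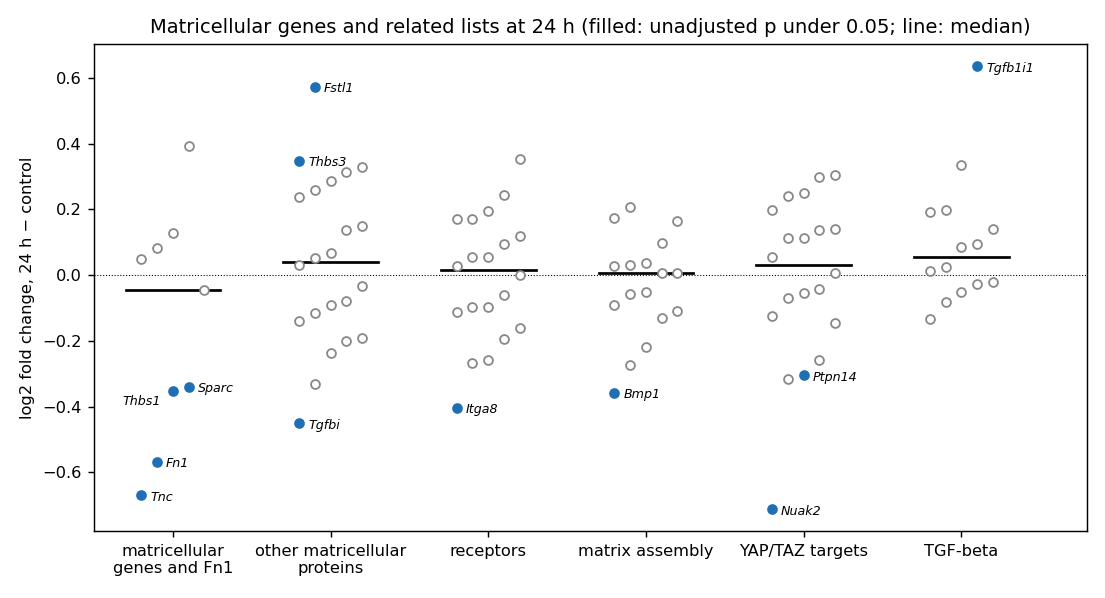
Log2 fold change at 24 h against control (vertical axis) of the 9 genes and of 5 lists of related genes (horizontal axis); each point is a probe set, filled and named where the unadjusted p is under 0.05, and the line is the list's median. Tnc at -0.67 and Nuak2 at -0.71 lie lowest, and the medians lie between -0.04 and 0.06.

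Among 2832 to 2833 named probe sets above the mark of the silent families, those whose values over the 15 arrays followed Fn1 most closely by Pearson correlation were Ralb (r = 0.83), Egr2 (r = 0.80) and Ssr3 (r = 0.75). For Tnc they were the cytokine Lif (r = 0.87), Abcf1 (r = 0.86) and Rab34 (r = 0.82), and for Sparc they were Ubap2l (r = 0.90), Tcf7l2 (r = 0.84) and Tab2 (r = 0.80). The first of each differed from control at 24 h by -0.41 (Ralb), -0.88 (Lif) and -0.26 (Ubap2l) on the log2 scale, none past the adjusted threshold. These are the highest of all correlations computed, the arrays share their group and their quality, and the values are given only as a description.

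The markers of fibroblasts and mural cells lay below the mark of the silent families. A mean above 6.26 was found in none of 9 fibroblast markers, in none of 8 mural cell markers and in 14.5% of all probe sets. The mean level of the fibroblast list ranged over arrays from 4.65 to 4.88 in control cells, from 4.57 to 4.89 at 12 h and from 4.69 to 4.85 at 24 h, and that of the mural list from 4.73 to 5.06, from 4.72 to 5.05 and from 4.73 to 5.00. At 24 h 0 of the fibroblast markers were lower and 1, Lum, was higher with an unadjusted p under 0.05 (log2 fold change 0.40, adjusted p = 0.700), while Col1a1 had -0.15. None of the mural markers reached that p, and over all probe sets 3.46% were lower and 3.64% higher with such a p. Of 6 leukocyte markers 1 was above the mark in every group, Ptprc, the pan-leukocyte antigen CD45, with means of 6.75 ± 0.16 (SD, n = 5), 7.07 ± 0.28 and 7.26 ± 0.26 and a log2 fold change of 0.51 at 24 h (adjusted p = 0.553). The mean level of the leukocyte list ranged over arrays from 5.03 to 5.15 in control cells, from 5.01 to 5.41 at 12 h and from 4.97 to 5.24 at 24 h. The part of such cells in the results was not tested.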

How the data were processed

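Total RNA of 15 samples of cultured mouse LECs was hybridised to 1 array each. The authors scanned with GCOS (version not given in the sources used here), used the Transcriptome Analysis Console with RMA normalization, and deposited log2 values of 22206 probe sets, of which 19572 have 1 symbol in the platform annotation. The array named in their methods is of another design than the probe set identifiers, and no build or filter is given. All 15 arrays entered 1 fit of the 3 groups with limma 3.58.1 in R 4.3.3, with 8.03 prior degrees of freedom, contrasts between groups and Benjamini-Hochberg adjustment over all probe sets. The fit was tested on simulated data. The genes, lists and arrays that stood apart were chosen with earlier results of these data known. All genes of the set are named, and from each other list the 4 with the smallest p at 24 h. The likeness was computed for genes with an unadjusted F test p under 0.05. Alternatives were the methods' Duncan test, arrays left out, fits of 2 groups, a replicate block, weighted arrays, averaged probe sets, unmoderated variances, a robust intensity trend, a filter on dim probe sets, and quantile or median scaling. The number of arrays limits the precision. The PCR, protein and animal experiments were not analysed here.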

Additional observations from a re-analysis of the deposited data

Results flagged for a closer look

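Ccn2 in control replicate 3 had a log2 level of 5.21, apart from the other control arrays at 5.36 to 5.38, with a gap of 0.882 of the range of the group (above Dixon's 95% critical value for 5 arrays). Of 27 groups of arrays examined it was the only one past that value, and chance gives about 1 in 20. Without this array the log2 fold change of Ccn2 at 12 h was 0.22 in place of 0.26.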

How the results depend on the processing

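None of the 9 genes passed at an adjusted p under 0.05 in any contrast or in the F test under any alternative that tested it. The filter on dim probe sets left out Sparcl1 and Thbs2, and the fits of 2 groups and Duncan's test gave no F test. The number with an unadjusted p under 0.05 was 1 at 12 h, 4 at 24 h, 1 for 24 h against 12 h and 3 in the F test, where 6.25% of all probe sets had one. With single arrays left out it ranged from 1 to 2, from 2 to 4, from 0 to 2 and from 2 to 4. At 24 h it was 2 without Ang II 24 h replicate 3 or 5. For 24 h against 12 h it was 0 without Ang II 12 h replicate 2 and 2 without 12 h replicate 1 or 4 or 24 h replicate 1, 4 or 5. At 12 h it was 2 without 24 h replicate 3. Without both arrays that stood apart it was 2 at 24 h and 1 in the F test. At 12 h it was 2 without moderation and 2 by the methods' Duncan test, with Ccn2 as the second gene. By Duncan's test it was 3 at 24 h and 0 after adjustment. For all 22206 probe sets, leaving out single arrays gave 1013 to 1245 unadjusted p-values under 0.05 at 12 h. At 24 h it gave 1361 to 1761, for 24 h against 12 h 1178 to 1444 and in the F test 1238 to 1506. The main fit gave 1577 at 24 h, the fit without both arrays that stood apart 1272 and Duncan's test 1399. At 12 h the main fit gave 1091, the fit without moderation 1073 and Duncan's test 935. Pairing by replicate number was not seen in the values. Same-numbered arrays had correlations of their deviations from the group means between -0.04 and 0.05. With the replicate block the counts of the 9 genes were the same, 1, 4, 1 and 3. Whether same-numbered samples were handled together cannot be told from these values.
Of 27 log2 differences, 8 changed sign under some alternative. Quantile normalization turned Fn1 at 24 h against 12 h to 0.0388, and leaving out both arrays that stood apart turned it to 0.12 and turned Sparcl1 at 24 h to -0.03. With single arrays left out, the ranges were -0.0395 to 0.12 for Sparc at 12 h, -0.16 to 0.018 for Thbs1 at 12 h, -0.025 to 0.43 for Postn at 12 h, -0.0095 to 0.10 for Thbs2 at 24 h and -0.10 to 0.003 for Ccn1 at 24 h. For 24 h against 12 h they were -0.13 to 0.12 for Fn1 and -0.0335 to 0.42 for Postn. The cause was not tested.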

Other observations

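TGF-beta signaling, which controls several matricellular genes in other cells, was represented by 14 probe sets of ligands, receptors, Smads and targets. At 24 h, 1 was higher (3.64% of all probe sets) and 0 were lower (3.46%) with an unadjusted p under 0.05. None passed after adjustment, and the median log2 difference was 0.06. The gene was Tgfb1i1, an adaptor of focal adhesions also called Hic-5, with means of 6.73 ± 0.33 (SD, n = 5) in control cells, 6.95 ± 0.22 at 12 h and 7.37 ± 0.41 at 24 h, and a log2 fold change of 0.64 at 24 h (limma, adjusted p = 0.551). The next 3 were the Smad corepressor Skil with 0.33, Smad3 with 0.19 and the coreceptor Tgfbr3 with 0.14.
Among the markers of lymphatic endothelium, Reln, Pdpn, Mmrn1 and Flt4 had the 4 smallest p-values at 24 h. Their log2 differences from control were 0.32, 0.27, -0.35 and 0.25. The rest were Nrp2 with -0.29, Foxc2 with -0.23, Prox1 with -0.18, and Lyve1 and Ccl21a with 0.07 each. The list was thus split, with 4 averages under control and 5 over it. With an unadjusted p under 0.05, 1 of 9 was higher and 0 were lower. Of 11 endothelial markers 1 was higher and 1 lower, Kdr with 0.63 (adjusted p = 0.553) and Vwf with -0.36, and Tek had 0.32 and Tie1 0.20. Of 6 leukocyte markers 1, Ptprc, was higher by the same rule, and Cd3e had -0.30, Adgre1 -0.15 and Lyz2 0.09. In the mural list the 4 smallest p-values belonged to Des with -0.17, Notch3 with -0.11, Rgs5 with 0.15 and Myh11 with 0.16, and in the fibroblast list Thy1 had -0.33 and Pdgfrb -0.13. None of these passed after adjustment over all probe sets.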
